A study of Homo sapiens with 16 samples.

Results

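The 10 genes described here encode enzymes that make serine from glucose, pass its carbon to folate, or close the last step of proline synthesis. They are PHGDH, PSAT1, PSPH, SHMT1, SHMT2, MTHFD1, MTHFD2, MTHFD1L, ALDH1L2 and PYCR1. They were chosen by name as enzymes of these pathways, with earlier results of these data known, and all 10 were found among the 58302 gene identifiers counted in the series. All 10 passed the filter on low counts in every comparison.

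The study sequenced polyadenylated RNA from HEK293, a human cell line established from embryonic kidney, in 16 libraries. In the siRNAG5 groups Gemin5, an RNA-binding protein of the SMN complex that also binds ribosomes, was silenced with a small interfering RNA at 100 nM delivered with Lipofectamine 2000. In the Ctrl groups it was not: the sample labels call these cells untreated, whereas the methods speak of a control siRNA, so only the absence of the Gemin5 siRNA is certain. From each kind of culture, RNA was taken from the cytoplasmic lysate (Input) and from the pooled heavy fractions of a sucrose gradient (Polysome), which gave 4 libraries in each of the 4 groups Input Ctrl, Input siRNAG5, Polysome Ctrl and Polysome siRNAG5. A single siRNA sequence and a single cell line stand behind every value, and although Input and Polysome RNA were taken from individual lysates, no label states that equal replicate numbers mark the same lysate.

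Serine is made from a glycolytic intermediate by PHGDH, PSAT1 and PSPH in turn. SHMT1 in the cytosol and SHMT2 in mitochondria convert it to glycine and load its side-chain carbon onto tetrahydrofolate. In mitochondria that carbon is oxidised by MTHFD2, released as formate by MTHFD1L or as carbon dioxide by ALDH1L2, while in the cytosol the trifunctional MTHFD1 takes formate up again for purine, thymidylate and methionine synthesis. PYCR1 reduces the precursor of proline in mitochondria. Many of these genes are known targets of ATF4, a transcription factor that amino acid shortage and other stresses induce.

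Gemin5 itself checks the labels. GEMIN5 stood at 15.7 to 20.4 CPM (counts relative to the library total, scaled by the TMM method, which centres on the bulk of genes, over all 16 libraries) in Input Ctrl and at 6.19 to 7.10 in Input siRNAG5, a log2 FC of -1.40 (SE 0.12, edgeR adjusted p = 3.11e-10). In Polysome it stood at 5.46 to 9.30 in Ctrl and 2.11 to 3.21 in siRNAG5 (log2 FC -1.44, SE 0.21, adjusted p = 0.00477). The 5 genes taken as defining for HEK293 (NEFL, NEFM, VIM, KRT18 and PAX2) had reads in every library, PAX2 at no more than 2.15 CPM. Reads counted on genes ranged from 11145324 to 24511299 per library. In Input they were 13347866 to 18053614 in Ctrl and 18411789 to 24511299 in siRNAG5, without overlap. In Polysome they were 11145324 to 14955873 and 14407396 to 16884295. Libraries of 1 group did not always lie together. On a principal component Polysome Ctrl 1, siRNAG5 1 and siRNAG5 4 stood apart from the other Polysome libraries. RNA of 12 liver genes was present in Input Ctrl 3 and 4 (134.8 and 119 CPM summed) and in all Polysome Ctrl libraries (75.75 to 152.5), with reads for all 12 genes in the latter, whereas it summed to 1.037 to 2.548 in the other Input libraries and to 0.3871 to 0.8835 in Polysome siRNAG5. ALB, the defining gene of that list, had 0 to 2 reads in each siRNAG5 library. In Polysome the liver RNA and the absence of the Gemin5 siRNA cannot be told apart.

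In GRCh38 SHMT2 and ALDH1L2 both lie on chromosome 12 and SHMT1 and PYCR1 both on chromosome 17, while each of the other members lies on a chromosome of its own. PHGDH (ENSG00000092621) spans chr1:119648411-119744218, MTHFD2 (ENSG00000065911) chr2:74186172-74217565, SHMT2 (ENSG00000182199) chr12:57229573-57234935 and ALDH1L2 (ENSG00000136010) chr12:105019784-105107643, the first 3 on the forward strand and the last on the reverse strand. Their canonical transcripts hold 12, 8, 12 and 23 exons. In the GENCODE v44 annotation exons of SHMT1 and PYCR1 overlap a gene on the same strand (MIR6778 and MYADML2). Reads falling there would be left out as ambiguous if the annotation used for counting held the same overlaps, which was not checked. Exons of SHMT1, SHMT2, MTHFD1, MTHFD2, ALDH1L2 and PYCR1 also overlap a gene on the opposite strand. Whether reads were counted by strand was not checked. Processed and other pseudogene copies of PSAT1, PSPH, SHMT1, MTHFD1 and MTHFD2, 14 in all, held 0 to 122 reads each over the 16 libraries, and reads matching both a gene and a copy were not counted.

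Because ATF4 targets were followed as a group, promoter windows of 300 bases (RefSeq, GRCh38.p14) were searched on both strands for short motifs. These were TGATGNAA, the core of the amino acid response element, and the E-box CACGTG, the site of the MYC family. Most of each window lay before the transcription start and the rest after it. The table held a window for 6 of the 10 members (PHGDH, PSAT1, SHMT1, MTHFD1, MTHFD2 and MTHFD1L) and for 11 of 12 genes of the ATF4 list. TGATGNAA was found in 3.67% of all 27305 windows, in 1 of the 6 members and in 3 of the 11 ATF4-list genes. CACGTG was found in 7.43% of all windows, in 2 of the 6 members and in 1 of the 11. Each match is given within 30 bases, read 5′ to 3′ on the strand of the gene, the motif in capitals (in CHAC1 the motif lies on the opposite strand).
MTHFD1L, TGATGNAA, chr6:150866346-150866375: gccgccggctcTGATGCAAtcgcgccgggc
MTHFD1L, CACGTG, chr6:150866320-150866349: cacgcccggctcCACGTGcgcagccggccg
MTHFD1, CACGTG, chr14:64388326-64388355: ccagtccctaagCACGTGggttgggttgtc
CHAC1, TGATGNAA, chr15:40953251-40953280: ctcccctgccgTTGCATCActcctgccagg
ATF3, TGATGNAA, chr1:212565205-212565234: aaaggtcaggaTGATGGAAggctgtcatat
ASNS, TGATGNAA, chr7:97872458-97872487 (reverse strand): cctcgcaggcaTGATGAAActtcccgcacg
ATF4, CACGTG, chr22:39520465-39520494: ggaggagacggtCACGTGgtcgcggcggaa

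The match of MTHFD1L begins 129 bases before the start and its E-box 154 bases before it. The E-box of MTHFD1 begins 15 bases before its start. The windows of PHGDH, PSAT1, SHMT1 and MTHFD2 hold neither motif, which says only that these letters are not in those 300 bases.

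The mRNA levels of the members differed widely. Per length (RPKM, CPM per kb of the canonical transcript), PHGDH was the most abundant in Input Ctrl at 458.8 ± 26.9 (SD, n = 4), followed by SHMT2 at 119.2 ± 9.03, PSAT1 at 88.0 ± 7.60, PYCR1 at 65.8 ± 5.87, MTHFD1 at 55.1 ± 2.83, MTHFD2 at 43.4 ± 2.80, MTHFD1L at 32.8 ± 0.807, SHMT1 at 24.4 ± 0.415, PSPH at 18.2 ± 2.15 and ALDH1L2 at 0.592 ± 0.0937. No neighbours in that order overlapped between libraries. In Input siRNAG5 the RPKM of MTHFD2 reached 68.9 and overlapped that of PYCR1 at 67.5, and SHMT1 (23.7) overlapped PSPH (21.3). In Polysome Ctrl the order of RPKM began with PHGDH (205.7) and PSAT1 (134.1), which overlapped, then MTHFD2 (63.3), PYCR1 (58.3) and SHMT2 (52.7), each overlapping its neighbour. With the summed length of all annotated exons in place of the canonical transcript the order changed, so ranks between genes hold for this length only.

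**Figure D1:**
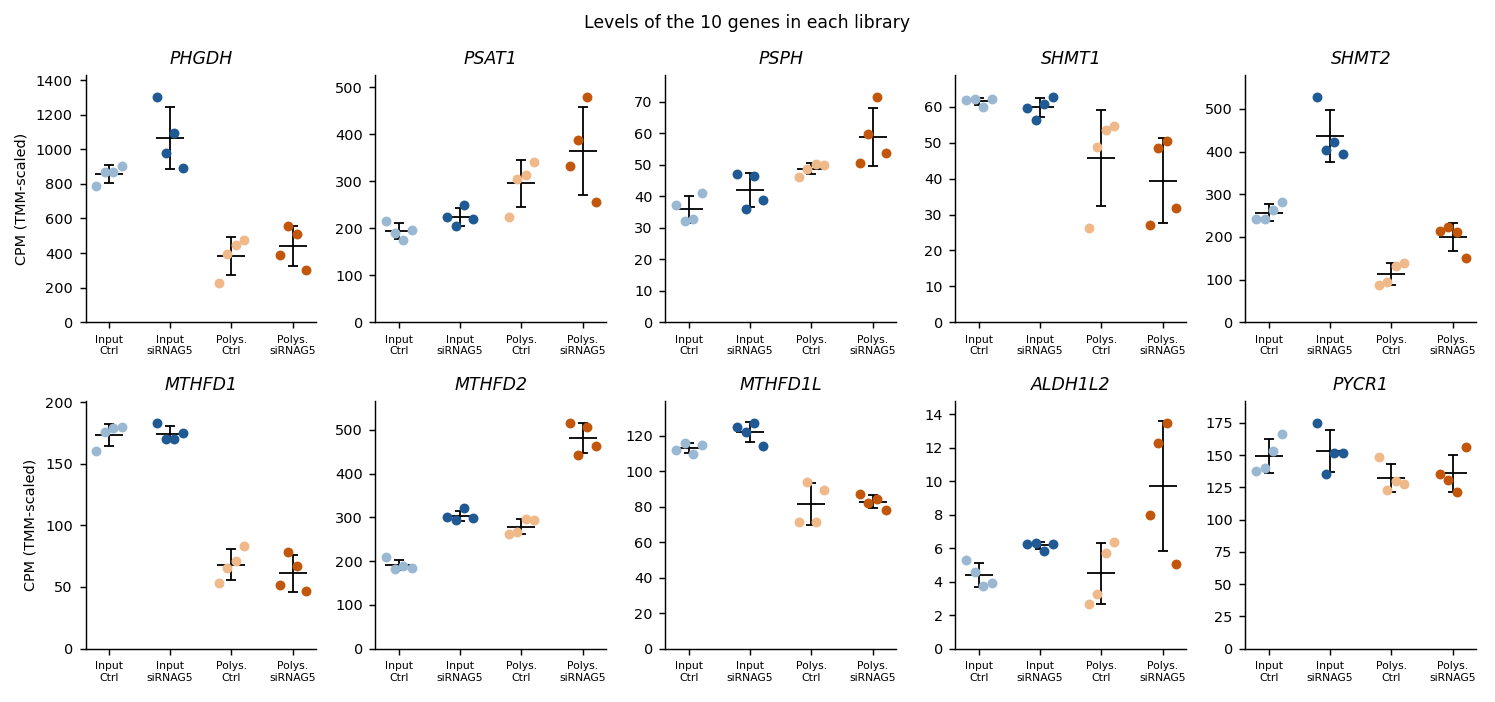
Level of each member in each library, in CPM scaled by the TMM method, 1 panel per gene with its own axis from 0. Points are libraries, horizontal lines are group means and bars the SD (n = 4). SHMT2 and MTHFD2 are higher in siRNAG5 than in Ctrl within both fractions with no overlap, and PHGDH, SHMT2 and MTHFD1 are lower in Polysome than in Input.

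Serine synthesis genes differed little between siRNAG5 and Ctrl. To be called, a gene had to have a log2 FC beyond 0.5 together with an adjusted p under 0.05, and by that rule none of PHGDH, PSAT1 and PSPH was called in either fraction. PHGDH, the first and committed enzyme, stood at 785, 867, 870 and 903 CPM in Input Ctrl and at 1302, 976, 1092 and 892 in Input siRNAG5. The groups overlapped, since siRNAG5 4 lay below Ctrl 4 (log2 FC 0.35, SE 0.08, edgeR adjusted p = 0.00149). In bulk RNA a difference in cell composition and one in RNA per cell cannot be told apart. In Polysome PHGDH was 225, 393, 444 and 473 CPM in Ctrl and 390, 557, 508 and 300 in siRNAG5, with a log2 FC of 0.21 (95% interval -0.32 to 0.75). The lowest library of each treatment was one of those that stood apart. PSAT1, the aminotransferase of the second step, was 175 to 215 CPM in Input Ctrl and 205 to 250 in Input siRNAG5 (log2 FC 0.24, SE 0.07, adjusted p = 0.00724), and 224 to 342 against 257 to 479 in Polysome (log2 FC 0.32, SE 0.20, adjusted p = 0.327). Both pairs of groups overlapped. PSPH, the phosphatase that releases serine, was 32.1 to 41.2 CPM in Input Ctrl and 36.0 to 47.1 in Input siRNAG5 (log2 FC 0.26, SE 0.09, adjusted p = 0.0291). In Polysome PSPH was 46.2 to 50.3 CPM in Ctrl and 50.6 to 71.6 in siRNAG5, and although the groups did not overlap the test was not passed (log2 FC 0.29, SE 0.13, adjusted p = 0.186). Without Input Ctrl 3 and 4, the Input libraries with liver RNA, the log2 FC of PHGDH, PSAT1 and PSPH was 0.39, 0.17 and 0.31. The SE of this smaller fit was 0.11, 0.09 and 0.12, and the edgeR adjusted p 0.00518, 0.157 and 0.0571. PSPH thus lost its adjusted p under 0.05 with a wider SE and not with a smaller log2 FC.

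SHMT2, which starts the mitochondrial folate route, rose in siRNAG5 in both fractions. In Input it stood at 241, 243, 262 and 283 CPM in Ctrl and at 528, 403, 422 and 395 in siRNAG5. Every siRNAG5 library lay above every Ctrl library, a 1.74-fold difference (log2 FC 0.80, SE 0.08, adjusted p = 7.29e-09). In Polysome it stood at 88.0, 95.5, 132 and 139 CPM in Ctrl and at 215, 223, 211 and 151 in siRNAG5, a 1.78-fold difference (log2 FC 0.84, SE 0.18, adjusted p = 0.0215). Again no libraries overlapped, with siRNAG5 4 the nearest to Ctrl. The Polysome call did not hold without Polysome Ctrl 2, siRNAG5 1 or siRNAG5 2, with adjusted p of 0.0878, 0.0568 and 0.0519 and a log2 FC of 0.78 to 0.80. Without the 3 Polysome libraries that stood apart it was called with a log2 FC of 0.84 and an adjusted p of 0.00542. SHMT1, the cytosolic isoenzyme, was 60.0 to 62.3 CPM in Input Ctrl and 56.3 to 62.7 in Input siRNAG5, and 26.2 to 54.6 against 27.0 to 50.5 in Polysome. The groups overlapped in both fractions, and the 95% intervals of log2 FC were -0.15 to 0.13 and -0.72 to 0.33.

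MTHFD2, the mitochondrial dehydrogenase and cyclohydrolase, rose in siRNAG5 in both fractions and held its call with any 1 library left out. In Input it stood at 209, 181, 189 and 185 CPM in Ctrl and at 300, 294, 320 and 300 in siRNAG5, a 1.62-fold difference (log2 FC 0.70, SE 0.06, adjusted p = 8.23e-10). In Polysome it stood at 262, 266, 295 and 293 CPM in Ctrl and at 515, 442, 506 and 462 in siRNAG5, a 1.75-fold difference (log2 FC 0.81, SE 0.14, adjusted p = 0.0105). No libraries of the groups overlapped in either fraction. With 1 library left out its log2 FC ranged over 0.67 to 0.73 in Input and 0.77 to 0.87 in Polysome.

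ALDH1L2, the formyltetrahydrofolate dehydrogenase of mitochondria, was the scarcest member, with 201 to 883 reads in a group of 4 libraries. In Input it stood at 5.29, 4.60, 3.77 and 3.93 CPM in Ctrl and at 6.27, 6.29, 5.84 and 6.26 in siRNAG5, and it rose 1.43-fold without overlap (log2 FC 0.51, SE 0.15, adjusted p = 0.00701). The log2 FC lay just beyond the limit and fell under it without Input Ctrl 3, Input Ctrl 4 or Input siRNAG5 1 (0.45, 0.46 and 0.49), while without both Ctrl 3 and Ctrl 4, which carried liver RNA, it was 0.35 (adjusted p = 0.165). In Polysome it was 2.65, 3.25, 5.71 and 6.38 CPM in Ctrl and 7.97, 12.3, 13.5 and 5.07 in siRNAG5. The groups overlapped through siRNAG5 4, which lay below Ctrl 3 and Ctrl 4 (log2 FC 1.12, 95% interval 0.40 to 1.85, adjusted p = 0.0556). Without siRNAG5 4 the log2 FC was 1.34 and passed, with an adjusted p of 0.0213. MTHFD1L, the mitochondrial formate synthetase, was 110 to 116 CPM in Input Ctrl and 114 to 127 in Input siRNAG5 (log2 FC 0.14, SE 0.07, adjusted p = 0.0931), and 71.3 to 94.3 against 78.3 to 87.2 in Polysome (log2 FC 0.04, SE 0.14, adjusted p = 0.881). The groups overlapped in both fractions.

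MTHFD1, the cytosolic counterpart of MTHFD2 and MTHFD1L in 1 protein, was 161 to 180 CPM in Input Ctrl and 170 to 183 in Input siRNAG5. The interval of its log2 FC was -0.10 to 0.17 in Input and -0.54 to 0.25 in Polysome, where Ctrl libraries lay at 53.4 to 82.9 CPM and siRNAG5 libraries at 46.4 to 78.7. PYCR1 was 138 to 166 CPM in Input Ctrl, 135 to 175 in Input siRNAG5, 123 to 148 in Polysome Ctrl and 122 to 156 in Polysome siRNAG5. Its intervals of log2 FC were -0.09 to 0.22 and -0.26 to 0.36, and groups of both genes overlapped in each fraction.

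Counted together, 3 of the 10 members were called higher and 0 lower in Input, where 10.5% of 14134 genes were called higher and 6.02% lower, and 2 were called higher and 0 lower in Polysome, where 3.95% of 14420 genes were called higher and 4% lower. In Input, 6 members had an adjusted p under 0.05 and a log2 FC above 0, against 17.9% of all genes. Groups did not overlap, siRNAG5 being higher, for 3 members in Input (14.4% of genes) and 3 in Polysome (8.98%). The median log2 FC of the members was 0.25 in both fractions, beside 0.04 and 0.03 over all genes. With total counts in place of TMM the median over all genes shifted to 0.14 in Input and 0.38 in Polysome, so that the values above are relative to the bulk of genes, and the log2 FC of SHMT1 in both fractions and of MTHFD1 in Polysome then lay above 0.

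**Figure D2:**
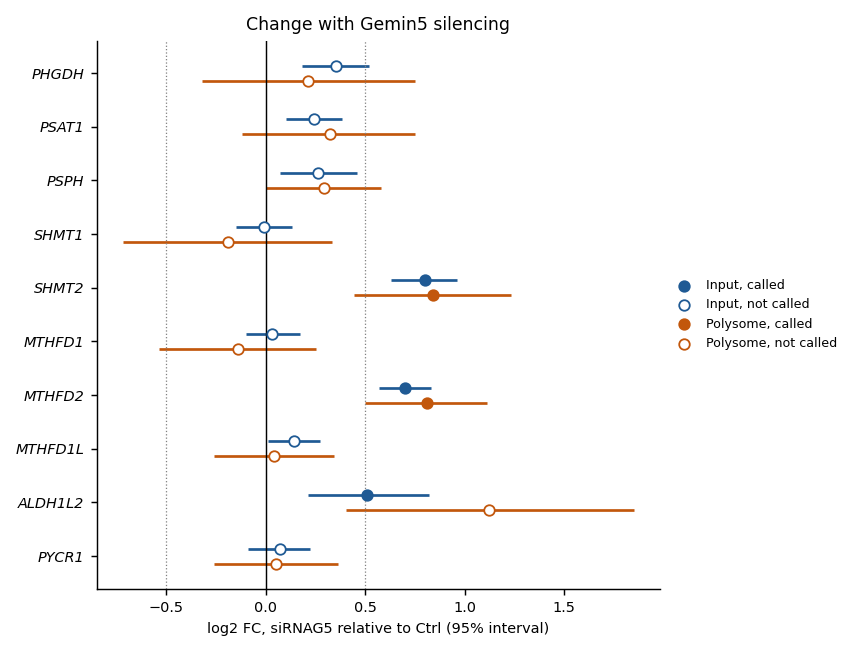
log2 FC of siRNAG5 relative to Ctrl for each member in Input and in Polysome, with 95% intervals from edgeR. Filled symbols passed the rule (log2 FC beyond the dotted lines at 0.5, adjusted p under 0.05), which SHMT2 and MTHFD2 did in both fractions and ALDH1L2 in Input.

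The change in Polysome was then set against the change in Input, which asks whether silencing moved an mRNA on polysomes beyond its change in the lysate. In the fit of all 16 libraries 0 of the 10 members were called by edgeR's quasi-likelihood test, and 0 had an unadjusted p under 0.05, where 1089 of all 14958 genes did (7.28%) and 0% were called. With DESeq2, 11 genes were called lower and 18 higher, 0 of them members. The difference of log2 FC was 0.00 for SHMT2 (95% interval -0.45 to 0.46) and 0.08 for MTHFD2 (-0.21 to 0.37). It was highest for ALDH1L2 at 0.57, with an interval of -0.24 to 1.38, the widest of the members (adjusted p = 0.808).

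**Figure D3:**
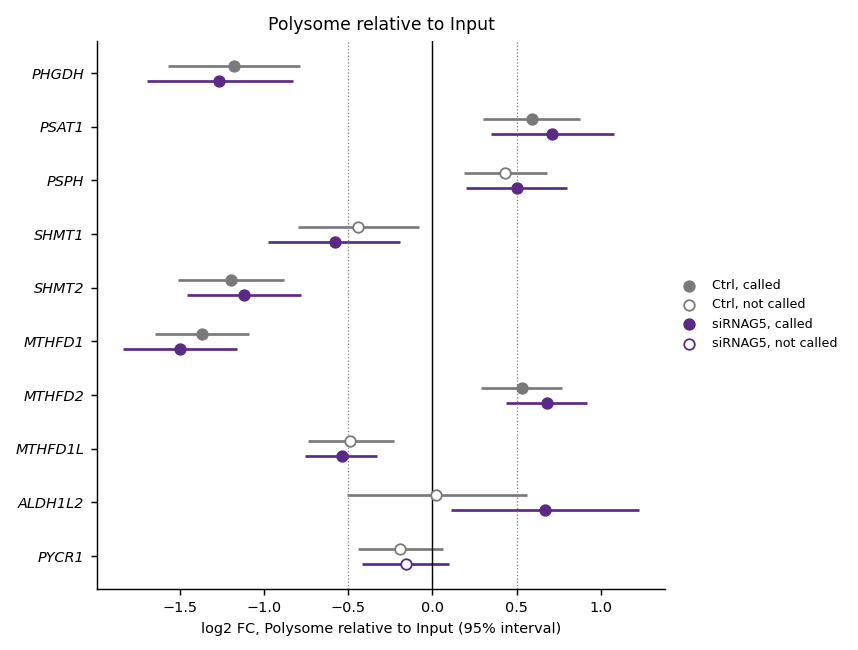
log2 FC of Polysome relative to Input for each member, in Ctrl and in siRNAG5 cells, with 95% intervals from edgeR. Filled symbols passed the rule, and PHGDH, SHMT2 and MTHFD1 lie below -1 in both kinds of cells.

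Between Polysome and Input the members lay in both directions, as genes at large did. In Ctrl 18.8% of 13666 genes were called lower and 20.8% higher. Relative to Input, PHGDH, SHMT2 and MTHFD1 mRNAs were lower in Polysome, with log2 FC of -1.18, -1.20 and -1.37 in Ctrl cells (SE 0.18, 0.15 and 0.13) and -1.27, -1.12 and -1.50 in siRNAG5 cells (SE 0.20, 0.16 and 0.16), all called. PSAT1 and MTHFD2 were higher, at 0.59 and 0.53 in Ctrl (SE 0.14 and 0.12, adjusted p = 0.00215 and 0.00129) and 0.71 and 0.68 in siRNAG5 (SE 0.17 and 0.11, adjusted p = 0.00378 and 0.000272). In siRNAG5 cells the limit was also passed by PSPH at 0.50 and ALDH1L2 at 0.67, and, lower, by SHMT1 at -0.58 and MTHFD1L at -0.54. In Ctrl cells these genes had log2 FC of 0.43, 0.02, -0.44 and -0.49 and were not called, but the difference between the treatments is the one tested above, and it was not called for any of them. PYCR1 was at -0.19 and -0.16 and not called. Several of these calls hung on the limit. In siRNAG5 cells PSPH lost its call without Input siRNAG5 2 or 4 or Polysome siRNAG5 2 or 3 (0.40 to 0.50), SHMT1 without Polysome siRNAG5 1 or 4 (-0.44 and -0.47) and MTHFD1L without Polysome siRNAG5 4 (-0.49). ALDH1L2, whose groups overlapped, lost it without any 1 Input siRNAG5 library or Polysome siRNAG5 2 or 3, with adjusted p of 0.0792 to 0.128. With the replicate number as a block PSPH (0.50) and ALDH1L2 (0.59, adjusted p = 0.0636) were not called in siRNAG5 cells, and the other calls held in both kinds of cells. In Ctrl cells MTHFD2 lost its call without Input Ctrl 2 (0.50), PSPH gained one without Input Ctrl 4 (0.50), SHMT1 without Polysome Ctrl 4 (-0.54) and MTHFD1L without Input Ctrl 3 or Polysome Ctrl 2 or 4 (-0.50 to -0.57). In all, 3 members were called lower and 2 higher in Ctrl, where 18.8% and 20.8% of 13666 genes were, and 5 lower and 4 higher in siRNAG5, where 21.2% and 23.9% of 14795 genes were.

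These ratios are relative to the TMM centre, since Polysome and Input RNA differ in composition. With total counts alone the median of all genes shifted to 0.51 in Ctrl and 0.69 in siRNAG5, and SHMT1, MTHFD1L and PYCR1 then lay above 0 in both, while PHGDH, SHMT2 and MTHFD1 stayed below 0. Reads that aligned to several places and were not counted made up 4.88 to 6.038% of reads in Input and 21.19 to 42.44% in Polysome. Within Polysome the share was 21.19 to 32.81% in Ctrl and 26.33 to 42.44% in siRNAG5. The part of these reads in the ratios, or in the change with silencing, was not tested.

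The isoenzymes of the 2 compartments were compared within each library, which removes scaling between libraries. Per length, SHMT2 exceeded SHMT1 by a ratio of 4.57, 4.58, 5.12 and 5.32 in Input Ctrl, and of 10.4, 8.40, 8.14 and 7.38 in Input siRNAG5. In Polysome the ratio was 3.93, 2.29, 2.90 and 2.97 in Ctrl and 9.31, 5.36, 4.89 and 5.55 in siRNAG5. In each fraction every siRNAG5 library lay above every Ctrl library. The ratio of MTHFD2 to MTHFD1 was 0.931, 0.739, 0.756 and 0.736 in Input Ctrl and 1.17, 1.24, 1.35 and 1.23 in Input siRNAG5. In Polysome it was 3.51, 2.92, 2.97 and 2.53 in Ctrl and 7.16, 4.02, 5.37 and 7.14 in siRNAG5, again with siRNAG5 above Ctrl in every library. The value of such a ratio depends on the length taken for each gene, the comparison of groups does not: with the summed length of all annotated exons MTHFD2 lay above MTHFD1 in Input Ctrl as well (16.7 against 10.01 RPKM). A ratio shows unequal change of its 2 genes and not which of them moved, and no test was made of it.

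**Figure D4:**
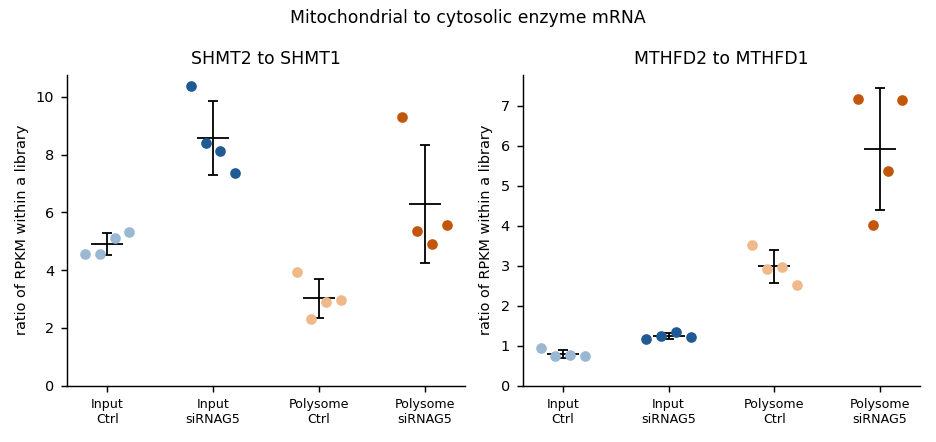
Ratio of RPKM of the mitochondrial to the cytosolic enzyme within each library, SHMT2 to SHMT1 on the left and MTHFD2 to MTHFD1 on the right, axes from 0. Points are libraries, lines are means and bars the SD (n = 4), and siRNAG5 lies above Ctrl in both fractions without overlap.

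Of 19 other folate genes 17 were tested in Input, with 2 called lower and 2 higher, where 6.02% and 10.5% of all genes were. The log2 FC of 13 of the 17 lay below 0, and siRNAG5 libraries lay wholly below Ctrl libraries for 9 of them and wholly above for 2 (19.8% and 14.4% of all genes). Their summed level was 902.1 to 946.6 CPM in Ctrl and 763.7 to 845.6 in siRNAG5, without overlap, whereas on total counts without TMM it was 689.8 to 728.9 and 636.1 to 696.9 and the groups overlapped. SLC46A1, the proton-coupled folate transporter, fell from 11.8 ± 1.42 to 6.604 ± 0.837 CPM (log2 FC -0.81, SE 0.13, adjusted p = 9.2e-06), and SLC25A32, the carrier that brings folate into mitochondria, from 17.1 ± 0.993 to 10.7 ± 1.48 CPM (log2 FC -0.64, SE 0.11). MTR, methionine synthase, rose by a log2 FC of 0.58 (SE 0.13). The other higher call was FOLR1, a folate receptor with 3 to 8 reads in the Ctrl and 11 to 31 in the siRNAG5 libraries (log2 FC 1.16, SE 0.36), which passed the filter on low counts through the group where it is high and supports no direction of the list. In Polysome 18 were tested, with 3 called lower and 1 higher, where 4% and 3.95% of all genes were. SLC19A1, the reduced folate carrier, and SLC46A1 fell (log2 FC -0.81 and -0.83, SE 0.13 and 0.18). The higher call was again FOLR1, on 1 to 4 reads in Ctrl and 15 to 23 in siRNAG5 libraries. ALDH1L1, a gene abundant in liver and at 1.09 CPM in the Polysome Ctrl libraries that carried liver RNA, was also called lower (log2 FC -2.70, SE 0.47). The median log2 FC of the list was -0.16 in Input and -0.10 in Polysome.

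Genes of neighbouring pathways were set beside all genes, of which 16.5% were called in Input and 7.95% in Polysome, in either direction. None of the 3 glycine cleavage genes tested and none of the 6 purine synthesis genes was called in either fraction, near those shares for such short lists. In Input 3 of the 6 purine genes had an edgeR adjusted p under 0.05. Their siRNAG5 libraries lay wholly below Ctrl for 3 and wholly above for 1 (19.8% and 14.4% of all genes). The summed purine level was 1035 to 1066 CPM in Input Ctrl and 830.9 to 954.7 in Input siRNAG5. On total counts without TMM it was 791.4 to 828.9 and 712.1 to 803.1, and the groups overlapped. Of the methionine and transsulfuration genes, 6 of 10 were tested and only CTH, which makes cysteine from cystathionine, was called. It rose from 20.4 ± 3.33 to 36.0 ± 1.60 CPM in Input without overlap (log2 FC 0.86, SE 0.10, edgeR adjusted p = 5.86e-08). In Polysome it rose from 12.1 ± 4.15 to 23.1 ± 7.06 CPM (log2 FC 0.95, SE 0.25, adjusted p = 0.0434). There the groups overlapped, at 8.36 to 17.7 CPM in Ctrl and 16.1 to 31.3 in siRNAG5. Of the other proline genes 3 were tested, and PYCR3 fell in Polysome (log2 FC -0.63, SE 0.13, adjusted p = 0.0182) and was under the limit in Input (log2 FC -0.35, SE 0.10). Of the 4 serine and glycine transporters 3 were called higher in Input (10.5% of all genes) and 0 in Polysome (3.95%), where the log2 FC of all 4 lay at 0.13 to 0.64. SLC6A9, a glycine transporter, had a log2 FC of 1.08 (SE 0.19) in Input and 0.64 (SE 0.24) in Polysome, and SLC1A5, a transporter of neutral amino acids, 0.70 (SE 0.09) and 0.13 (SE 0.13). The change in Polysome minus that in Input was not called for any gene of these lists.

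**Figure D5:**
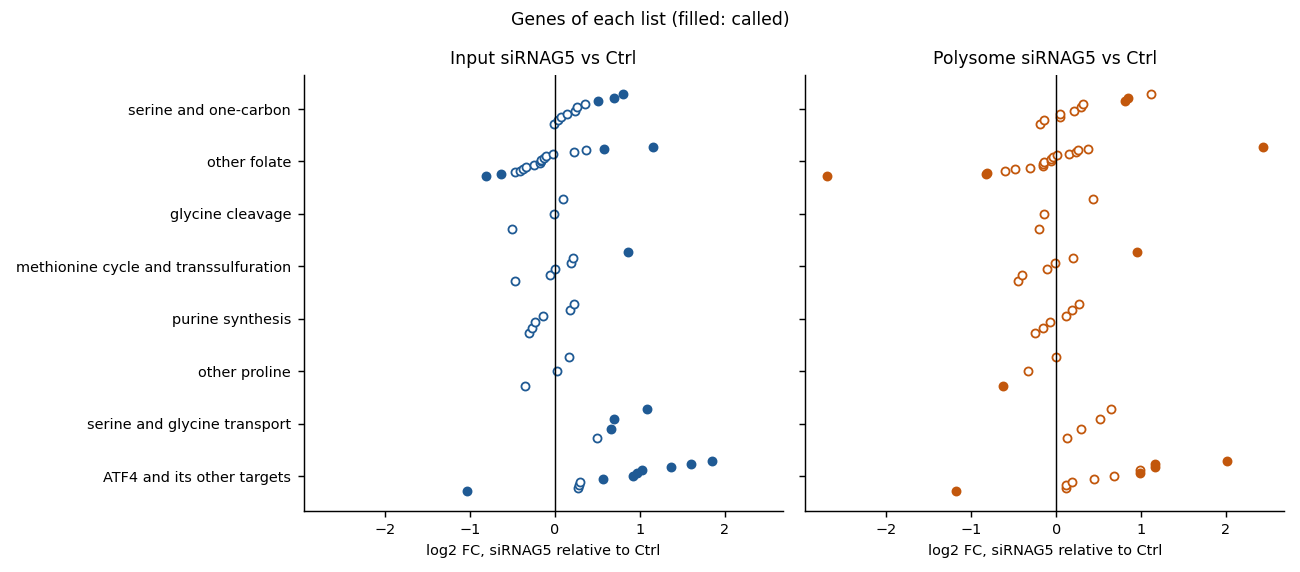
log2 FC of siRNAG5 relative to Ctrl for each tested gene of the members and of the related lists, in Input and in Polysome. Each point is a gene, filled where it passed the rule. Among the pathway lists plotted, which differ in size, the ATF4 group has the largest number of called genes in both fractions.

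Among the pathway lists, ATF4 and 11 of its other targets had the most calls by number. The lists differ in size, and of the 4 serine and glycine transporters 3 were called in Input and 0 in Polysome. Of the 11 tested in Input, 7 rose and 1 fell, where 10.5% and 6.02% of all genes did. Of the 11 tested in Polysome, 4 rose and 1 fell, where 3.95% and 4% did. CHAC1, which degrades glutathione, rose from 9.03 ± 1.29 to 31.8 ± 6.12 CPM in Input (log2 FC 1.85, SE 0.13, adjusted p = 1.29e-11) and from 10.9 ± 2.21 to 43.3 ± 5.51 CPM in Polysome (log2 FC 2.01, SE 0.18, adjusted p = 0.000134). VLDLR, a lipoprotein receptor, rose by a log2 FC of 1.60 in Input (SE 0.20) and 1.16 in Polysome (SE 0.30). It was scarce, with 15 to 23 reads in the Input Ctrl and 9 to 41 in the Polysome Ctrl libraries. DDIT3 rose by 1.37 in Input (SE 0.14) and 1.16 in Polysome (SE 0.26). ATF5, a transcription factor related to ATF4, fell by 1.03 on the log2 scale in Input (SE 0.16) and by 1.18 in Polysome (SE 0.22). ATF4 mRNA itself had a log2 FC of 0.28 (SE 0.06, adjusted p = 0.000596) in Input, under the limit, and 0.19 (SE 0.23, adjusted p = 0.628) in Polysome. ASNS, a classical member of this group whose window is printed above, was not tested, with at most 19 reads in a library, and its exons overlap those of a gene on the same strand.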

How the data were processed

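Polyadenylated RNA of 4 Input Ctrl, 4 Input siRNAG5, 4 Polysome Ctrl and 4 Polysome siRNAG5 libraries was analysed, with groups taken from the sample labels. The authors made stranded libraries, aligned the reads to GRCh38 with STAR 2.5.3a, counted reads per Ensembl gene with QoRTs and deposited the raw counts. Reads aligned to several places (4.88 to 42.44% of a library), to more than 1 gene (4.14 to 7.411%) or to no gene (0.6675 to 1.329%) are listed apart and entered neither library sizes nor tests, so reads shared with close copies of a gene are missing from its count. GENCODE v44 named 57532 of the 58302 identifiers.

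For each comparison its libraries alone entered a quasi-likelihood fit of edgeR 4.0.16 (filterByExpr, TMM, glmQLFit, glmQLFTest, run in R 4.3.3) over all genes with Benjamini-Hochberg adjustment. The difference between fractions used the 16 libraries in 1 fit. CPM were scaled by TMM over all libraries, and RPKM divided them by the canonical transcript length. The study's methods describe the 4 replicates of a treatment as independent biological samples. The members and lists were chosen with earlier results of these data known. Named genes were the members, GEMIN5, per list up to 2 called genes with the largest change per direction, and genes of like pattern. ATF4, which heads its list, was added after its values were seen.

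On simulated counts with 200 genes changed by a log2 FC of 1, edgeR called 170 of them among 14134 genes for silencing in Input, 115 among 14420 for silencing in Polysome, 75 among 14958 for the difference, and 166 among 13666 (Ctrl) and 141 among 14795 (siRNAG5) for Polysome relative to Input. Alternatives were RLE size factors, no filter, DESeq2 1.42.0, the replicate block, all libraries in 1 fit, 1 surrogate variable (sva 3.50.0), no fold limit, and libraries left out. Total counts without TMM were added after the factors, 0.7462 to 1.524, had been seen. Within each fraction the factors were higher in siRNAG5 than in Ctrl without overlap. Figures were drawn with matplotlib 3.10.9.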

Additional observations from a re-analysis of the deposited data

Results flagged for a closer look

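The lowest and highest library of each member in each group were set against the other libraries by Dixon's test, which chance passes in about 1 of 20 groups, and 2 of 40 groups passed. SHMT2 in Polysome siRNAG5 4 stood at 150.7 CPM, where the other 3 libraries lay between 210.9 and 222.6. This library is one of the 3 Polysome libraries that stood apart from the rest. PHGDH, PSAT1, MTHFD1, MTHFD1L and ALDH1L2 were also lowest in it within their group, whereas PYCR1 was highest in it. ALDH1L2 in Input siRNAG5 3 stood at 5.842 CPM, where the others lay between 6.258 and 6.288.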

How the results depend on the processing

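With no fold limit the members called were 6 in Input (3 otherwise), where 19.1% of all genes were lower and 17.9% higher by that rule, and 8 for Polysome relative to Input in Ctrl (5), where 23.2% were lower and 24.3% higher. With total counts in place of TMM they were 4 in Polysome (2). Leaving out 1 library in turn gave 2 to 3 members in Input, 1 to 3 in Polysome (1 without Ctrl 2, siRNAG5 1 or siRNAG5 2), 0 to 0 for the difference, and 4 to 7 (Ctrl) and 7 to 8 (siRNAG5) for Polysome relative to Input. Over all genes the Input fits called 696 to 956 lower and 1197 to 1556 higher. The 3 named Polysome fits called 113, 254 and 245 lower and 76, 264 and 267 higher, beside 577 and 569 with all libraries. For Polysome relative to Input the calls were 2309 to 2752 lower and 2600 to 3047 higher (Ctrl), and 2791 to 3282 and 3277 to 3842 (siRNAG5). Each fit tested 13704 genes or more.

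Total counts turned the sign of log2 FC for SHMT1 in Input (0.09) and in Polysome (0.17) and for MTHFD1 in Polysome (0.22), for the differences of PHGDH (0.12), SHMT1 (0.07), MTHFD1 (0.08), MTHFD1L (0.15) and PYCR1 (0.22), for Polysome relative to Input in Ctrl of SHMT1 (0.10), MTHFD1L (0.04) and PYCR1 (0.35), and in siRNAG5 of SHMT1 (0.18), MTHFD1L (0.19) and PYCR1 (0.57). The medians over all genes then were 0.14, 0.38, 0.21, 0.51 and 0.69. Calls over all genes were 450 lower and 2175 higher in Input (851 and 1479 with TMM), 207 and 2307 in Polysome (577 and 569), 758 and 6246 for Polysome relative to Input in Ctrl (2566 and 2842), and 797 and 8516 in siRNAG5 (3132 and 3535). Without the 3 Polysome libraries that stood apart MTHFD1 was at 0.01 and MTHFD1L at -0.02 in Polysome. Signs also turned with 1 library left out, over ranges of -0.18 to 0.19 for ALDH1L2 (Polysome relative to Input, Ctrl), -0.03 to 0.13 for MTHFD1L and -0.02 to 0.13 for PYCR1 (Polysome), -0.01 to 0.05, -0.02 to 0.12 and -0.03 to 0.02 for MTHFD1, PYCR1 and SHMT1 (Input), and -0.08 to 0.18 and -0.12 to 0.05 for PSAT1 and PYCR1 (difference).

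With the replicate block, the counts of members called were 3, 2 and 0, and 5 and 7 for Polysome relative to Input in Ctrl and siRNAG5. Over all genes, calls lower and higher were then 847 and 1466 of 14134 in Input and 558 and 444 of 14420 in Polysome. For Polysome relative to Input they were 2690 and 2841 of 13666 in Ctrl and 3250 and 3454 of 14795 in siRNAG5. In siRNAG5 PSPH (0.50) and ALDH1L2 (0.59, edgeR adjusted p = 0.0636) lost their call, and ALDH1L2 in Ctrl was at -0.03. Input and Polysome RNA came from individual lysates, so libraries of the fractions may be paired, but same-numbered libraries did not all deviate together (correlations of -0.53 to 0.48 over all pairs of groups, -0.21 to 0.22 between the fractions, and not every library correlated best with its own number). Whether equal numbers mark the same lysate is not settled here.

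ALDH1L2 in Polysome passed with no filter, DESeq2 (adjusted p = 0.0155) and all 16 libraries in 1 fit (0.00699), and in Input missed in that fit (0.241). Over all genes the Polysome calls were 1101 lower and 840 higher with DESeq2, 1520 and 1077 in the fit of all 16 libraries, 1427 and 1572 with a surrogate variable, 1788 and 1327 without the 3 libraries, 941 and 825 with no filter, and with 1 library left out 113 to 836 lower and 76 to 687 higher. Differences between fractions were called for 29 and 28 genes with no filter, 11 and 18 with DESeq2, 346 and 110 with a surrogate variable, 659 and 106 without the 3 libraries, and 9 and 0 without Input Ctrl 3 and 4, with 0 members each time. Depth was lowest for ALDH1L2, with 201 to 883 reads per group. The causes of these shifts were not tested.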

Other observations

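Over the 16 libraries, with the mean of each fraction subtracted from log2 CPM, the genes whose pattern was most like that of PHGDH among 14948 compared were SARS1 (Pearson r = 0.957), LIG1 (0.954) and ALDH2 (0.951). For MTHFD2 they were PCNX2 (0.975), CARD8 (0.973) and KAT2B (0.972). The libraries share treatment groups and scaling, so these values are a description. Between members, SHMT2 and MTHFD2 had an r of 0.90, PSAT1 and ALDH1L2 0.87, SHMT1 and MTHFD1 0.86, and SHMT1 and MTHFD2 -0.18. The lowest values belonged to PYCR1, whose r with the other members ran from -0.52 (SHMT1) to 0.14 (PSPH).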
